A study of Homo sapiens with 101 samples.

Results

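Transcript levels in HT1080 cells given the compound labelled BRO at 600 µM were compared with those in cells given its own vehicle control, labelled BRO_DMSO. The 12 arrays of these 2 groups, 6 of each, were taken by their titles from the 101 arrays of the series. HT1080 is an established human fibrosarcoma line, so each sample is 1 kind of tumour cell of mesenchymal origin. BRO and DMSO samples alike were in complete medium with serum and a final vehicle share of 0.1%, and the exposure time is not given in the sources used here. Every compound was used at a single concentration, at which total p53 was up by 1.5 times, according to the series text. BRO is kept as a code because the labels do not spell it out. Sets of 3 other compounds serve to show where BRO differs. They are hydrogen peroxide (H2O2, 100 µM, 5 samples) and tert-butylhydroquinone (tBHQ, 200 µM, 6 samples), both set against the control DMSO_pooled (6 samples), a tie that the labels do not spell out, and the compound labelled ETP (0.3 µM, 6 samples), with its control ETP_DMSO (6 replicates on 7 arrays). Nothing in the labels says that replicates came from separate cultures, so a p-value here reflects only how far these samples vary, and that variation may be technical.

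The deposited values are log2 probe set signals, and 1 probe set stands for each of 11496 genes tested. Levels are therefore log2 signals of 1 probe set, which cannot be set against the level of another gene, and a difference of 1 is a factor of 2. The 12 arrays had alike distributions, with medians over all probe sets from 2.88 to 2.91 in BRO samples and from 2.90 to 2.92 in BRO_DMSO samples. Of 13 markers of a mesenchymal fibrosarcoma cell, 12 had a mean log2 signal of 4 or more, and THY1 was below. None of 9 epithelial, 6 blood and 5 endothelial markers reached 4. The first principal component of the 12 arrays held 45.8% of the variance and separated the 2 groups, with BRO replicates 4 and 6 nearest to the controls. A group mean under 4 is called not well above background here, and a change from or to such a level is given as a bound. The number of arrays and the signal over background limit the precision.

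NRF2, encoded by NFE2L2, is the transcription factor that turns on genes for glutathione synthesis, thioredoxin recycling, quinone and carbonyl reduction, NADPH supply and heme breakdown. In unstressed cells the adaptor protein KEAP1 binds NRF2 and has it degraded, and electrophiles and oxidants that modify KEAP1 cysteines let NRF2 accumulate. It binds DNA with a small MAF protein at the antioxidant response element. The tumour suppressor p53 responds to DNA damage by turning on inhibitors of the cell cycle, DNA repair genes, death genes and its own negative regulators.

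The core of the antioxidant response element, searched here as TGACNNNGC and on the other strand as GCNNNGTCA, was present in the promoter windows of GCLM, PIR and TXNRD1, whose transcripts rose in BRO samples. They are shown as 3 examples of windows that hold the element, which most NRF2 targets that rose did not. They come from RefSeq on the build GRCh38.p14, reach from before to after the annotated start of transcription, read 5′ to 3′ in the direction of the gene, and have the matches in capitals. GCLM lies on the minus strand with its window at chr1:93909381-93909680, PIR on the minus strand at chrX:15493284-15493583 and TXNRD1 on the plus strand at chr12:104215529-104215828.
GCLM: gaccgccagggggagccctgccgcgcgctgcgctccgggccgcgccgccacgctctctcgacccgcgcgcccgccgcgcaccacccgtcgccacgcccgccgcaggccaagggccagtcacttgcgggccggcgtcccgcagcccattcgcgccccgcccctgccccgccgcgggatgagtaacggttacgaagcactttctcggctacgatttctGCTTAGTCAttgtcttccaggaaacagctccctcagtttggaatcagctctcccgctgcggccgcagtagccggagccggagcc
PIR: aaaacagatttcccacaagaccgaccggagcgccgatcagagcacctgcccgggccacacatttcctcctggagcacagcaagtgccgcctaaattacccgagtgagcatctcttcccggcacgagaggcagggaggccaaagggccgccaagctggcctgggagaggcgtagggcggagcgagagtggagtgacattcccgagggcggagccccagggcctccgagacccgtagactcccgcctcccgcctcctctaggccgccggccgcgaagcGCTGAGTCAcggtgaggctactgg
TXNRD1: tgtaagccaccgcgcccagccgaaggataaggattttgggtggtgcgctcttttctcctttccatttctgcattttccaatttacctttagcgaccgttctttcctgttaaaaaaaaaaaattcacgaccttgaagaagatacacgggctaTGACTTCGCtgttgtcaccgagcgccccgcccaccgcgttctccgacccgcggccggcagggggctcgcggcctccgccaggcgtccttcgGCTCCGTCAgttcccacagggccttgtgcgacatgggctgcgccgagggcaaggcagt
The match began at position -34 from the start of transcription in GCLM and at position 27 in PIR, and TXNRD1 had 2 matches, at -99 and -8. The core is short, and 13.3% of all 35116 promoter windows held it. Counted by gene, with a match in any window of the gene, the share was 24.7% among 239 genes that rose and 17.2% among 454 that fell. It was 19.6% among 9494 tested genes with a window. The 13.3% counts windows, so it cannot be set against these shares of genes. Of NRF2 targets with a window, 6 of 17 that rose (35.3%) and 3 of 10 that were not called (30.0%) held it. A match is a run of letters and not a shown binding site, and no match says nothing of elements farther away.

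BRO samples differed from BRO_DMSO samples at 850 of 11496 tested genes, 7.39% of them, with 283 higher (2.46%) and 567 lower (4.93%). Calls needed a limma adjusted p below 0.05 and a change of 1.5-fold or more, and values after gene symbols are log2 changes, BRO minus BRO_DMSO, ± standard error. At a minimum of 2-fold the counts were 50 higher (0.435%) and 96 lower (0.835%). The rises were larger than the falls at the top, since the largest rise was 4.17 and the largest fall 2.01 in size on the log2 scale. In bulk RNA, fewer cells with a transcript and less of it per cell cannot be told apart. The median change of all tested genes was -0.021, and 39 gene lists, of which 3 were chosen after their values were seen, are described against it.
The split between higher and lower depended on the scaling of the arrays. Higher genes were 33.3% of the calls as deposited, 35.2% when the arrays were set to an equal median over all probe sets, 38.5% over the tested genes, 44.4% after quantile normalization and 57.3% with an equal median over all 19774 genes. The last of these raised the median change of the tested genes by 0.101 and gave 493 higher and 368 lower genes.

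**Figure D1:**
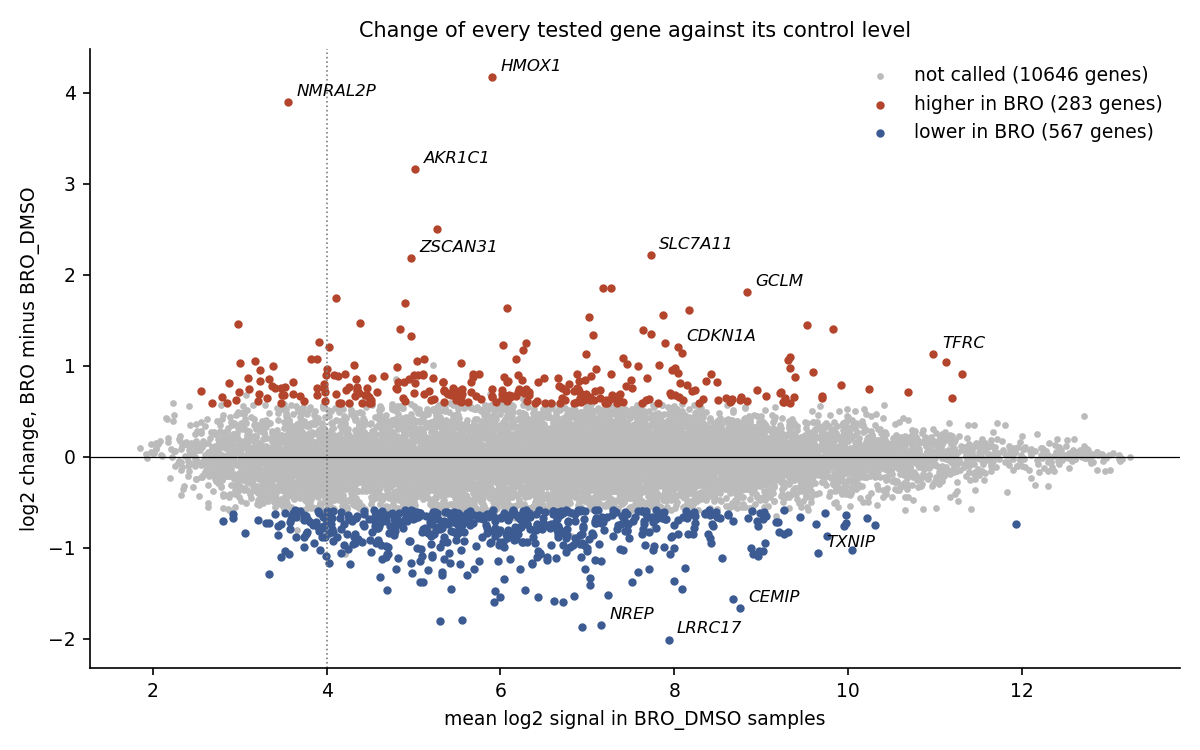
Log2 change of each of 11496 tested genes (vertical axis, BRO minus BRO_DMSO) against its mean log2 signal in the 6 BRO_DMSO samples (horizontal axis), with 283 genes called higher and 567 called lower in colour and a dotted line at a signal of 4. The largest rises, HMOX1 and NMRAL2P, reached about 4 log2 units, while no fall went past -2.01.

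Every BRO sample lay above every control at 769 genes (6.69%) and below every control at 814 (7.08%), so that the groups were apart at 1583 genes (13.8%). Within the 6 same-numbered pairs, 281 of the 283 higher genes had a positive change in all pairs and 551 of the 567 lower genes a negative one. The size varied between pairs. The median change of the higher genes ran between 0.616 in pair 6 and 0.996 in pair 3, and that of the lower genes between -0.554 in pair 4 and -1.091 in pair 3. With the genes in 4 bins of equal size by control level, 1.29% rose and 1.77% fell in the highest bin, and 2.85% rose and 8.18% fell in the second bin from the bottom. Of the 850 genes, 62 were not well above background in either group.

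**Figure D2:**
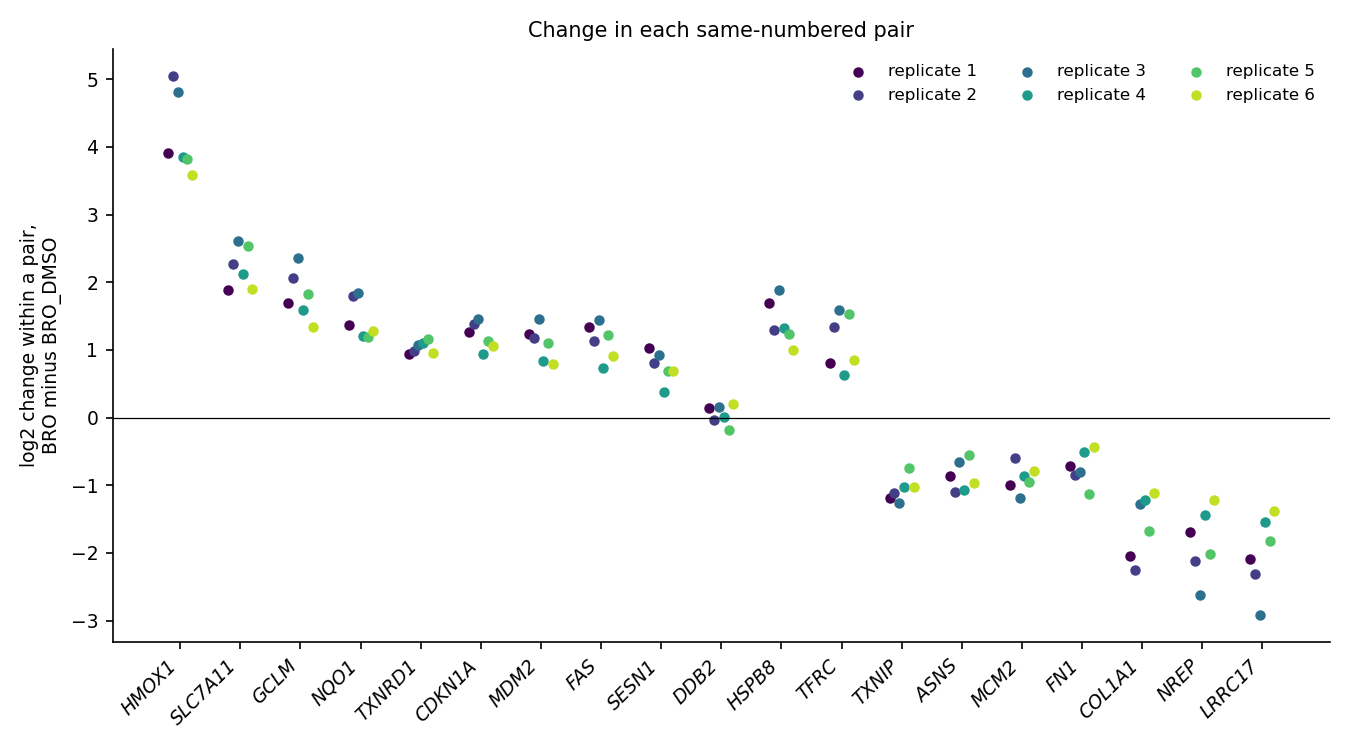
Log2 change within each same-numbered pair of a BRO and a BRO_DMSO sample (vertical axis) for 19 genes (horizontal axis), 1 point a pair. HMOX1 lay between 3.59 and 5.05 and LRRC17 between -2.92 and -1.38, and DDB2 lay on both sides of 0.

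NRF2 targets were the list with the most rises in BRO samples. Of 35 tested members, 21 rose, beside 2.46% of all tested genes, and none fell. All 35 changes were above 0, and the median change was 0.849, against -0.021 over all genes tested. In 28 members every BRO sample stood above every control, which held for 6.69% of all tested genes, and 3 members were not well above background in either group. Across the 21 that rose, BRO replicate 3 had the highest level in 13 and BRO replicate 4 the lowest in 16.

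**Figure D3:**
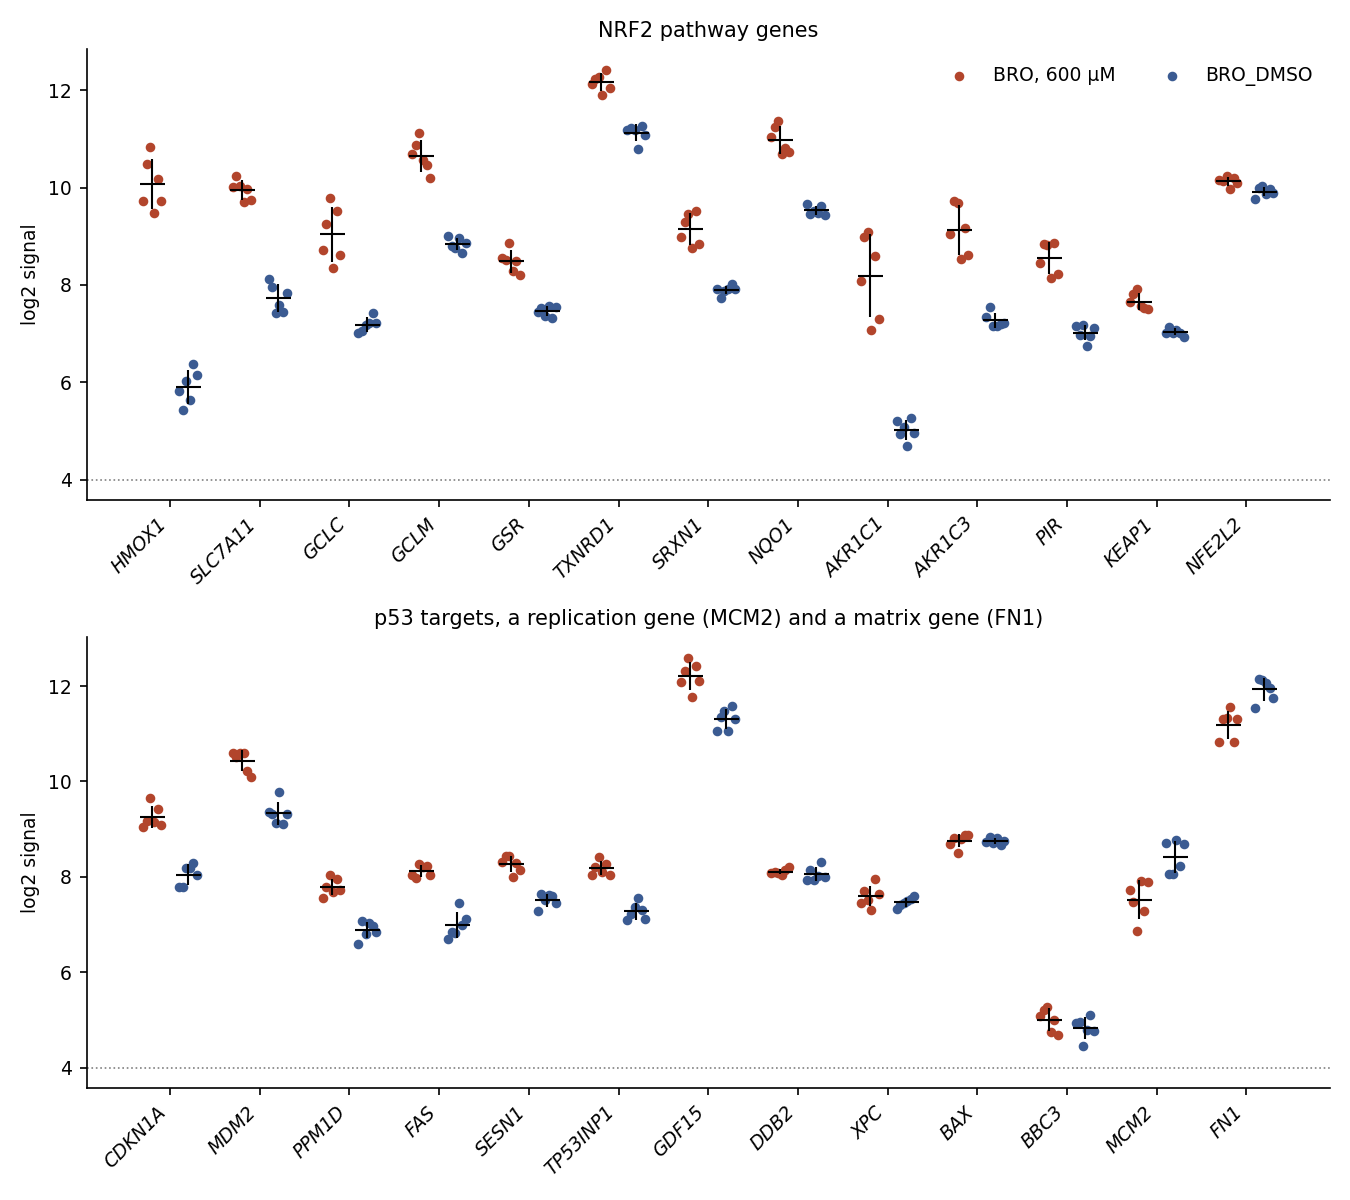
Log2 signal (vertical axis) of each of 6 BRO samples and, to their right, each of 6 BRO_DMSO samples for 26 genes (horizontal axis), with black marks for the mean ± SD and a dotted line at 4. The points of the 2 groups are apart for HMOX1, GCLM, NQO1, CDKN1A and MDM2 and lie in the same range for DDB2, XPC, BAX and BBC3.

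HMOX1, heme oxygenase 1, which breaks heme down to biliverdin, iron and carbon monoxide, rose most of all tested genes. Its lowest, median and highest log2 signals were 9.48, 9.96 and 10.83 in BRO samples, against 5.43, 5.92 and 6.37 in BRO_DMSO samples. The groups were apart by more than 3 log2 units at their closest, and the change was 4.17 ± 0.22 (adjusted p = 1.4e-07), which is 18-fold. NMRAL2P, a transcribed pseudogene, had 6.67, 7.52 and 8.11 in BRO samples, against 3.34, 3.57 and 3.75 in BRO_DMSO samples. All controls were not well above background, so its rise is at least 3.46 on the log2 scale (adjusted p = 1.4e-07).

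SLC7A11, GCLC, GCLM and GSR, which serve the supply of glutathione, rose. SLC7A11, the cystine importer subunit that feeds glutathione synthesis, had 9.70, 10.00 and 10.24 in BRO samples, against 7.43, 7.71 and 8.12 in BRO_DMSO samples (2.22 ± 0.13, adjusted p = 4.1e-07). GCLC and GCLM are the catalytic and modifier subunits of glutamate-cysteine ligase, the first and rate-limiting enzyme of the pathway. GCLC had 8.36, 8.98 and 9.78 in BRO samples, against 7.0, 7.20 and 7.43 in BRO_DMSO samples (1.85 ± 0.21, adjusted p = 5.4e-05), and its BRO replicate 4 was the lowest of the treated samples. GCLM, whose promoter window is printed above, had 10.19, 10.63 and 11.12 in BRO samples, against 8.65, 8.83 and 9.0 in BRO_DMSO samples (1.81 ± 0.13, adjusted p = 4.2e-06). Glutathione reductase, encoded by GSR, had 8.21, 8.50 and 8.87 in BRO samples, against 7.31, 7.49 and 7.56 in BRO_DMSO samples (1.02 ± 0.10, adjusted p = 3e-05). In each of these 4 genes every treated sample stood above every control.

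Members of the thioredoxin system were called too. TXNRD1, the cytosolic thioredoxin reductase, had 11.89, 12.17 and 12.42 in BRO samples, against 10.79, 11.19 and 11.27 in BRO_DMSO samples (1.04 ± 0.10, adjusted p = 2.7e-05), with pair changes between 0.94 and 1.16. Its rise was 0.53 as the mean of all its probe sets, of which only 1 lay above background. SRXN1, sulfiredoxin, which repairs overoxidized peroxiredoxins, had 8.76, 9.14 and 9.52 in BRO samples, against 7.74, 7.91 and 8.01 in BRO_DMSO samples (1.25 ± 0.13, adjusted p = 3.2e-05). No overlap was seen for either gene. Of 31 tested thioredoxin, peroxiredoxin and other antioxidant enzymes, these 2 and GSR rose, beside 2.46% of all tested genes, and none fell, with a median of 0.110. Catalase, encoded by CAT, changed by -0.41 ± 0.12 (adjusted p = 0.017), which is under 1.5-fold.

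Enzymes that reduce quinones and carbonyls were among the largest rises. NQO1, the quinone reductase, had 10.70, 10.93 and 11.36 in BRO samples, against 9.44, 9.50 and 9.66 in BRO_DMSO samples (1.45 ± 0.11, adjusted p = 6.4e-06). AKR1C1, an aldo-keto reductase of steroids and lipid aldehydes, had 7.07, 8.34 and 9.09 in BRO samples, against 4.69, 5.01 and 5.27 in BRO_DMSO samples (3.16 ± 0.31, adjusted p = 2.7e-05), and BRO replicates 4 and 6 lay well below the other 4 treated samples. Its near relatives AKR1C2 and AKR1C3 changed by 2.51 ± 0.21 (adjusted p = 1.2e-05) and by 1.86 ± 0.19 (adjusted p = 3.2e-05). AKR1C1 and AKR1C2 are close to identical in sequence, and whether their probe sets read each other's transcripts was not tested. AKR1B10, another aldo-keto reductase, changed by 1.75 ± 0.22 (adjusted p = 0.00014). PIR, pirin, an iron-binding nuclear protein, had 8.15, 8.64 and 8.87 in BRO samples, against 6.75, 7.04 and 7.17 in BRO_DMSO samples (1.54 ± 0.14, adjusted p = 1.7e-05).

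Of 13 tested genes of the pentose phosphate route and NADPH supply, 3 rose and 1 fell, beside 2.46% and 4.93% of all tested genes. In this list 7 changes were below 0 and the median was -0.005. Malic enzyme 1 (ME1) changed by 0.87 ± 0.09 (adjusted p = 3.2e-05), 6-phosphogluconate dehydrogenase (PGD) by 0.83 ± 0.12 (adjusted p = 0.00026) and transketolase (TKT) by 0.64 ± 0.08 (adjusted p = 0.00015). As the mean of all its probe sets, of which only 1 lay above background, PGD changed by 0.31. The mitochondrial isocitrate dehydrogenase IDH2 fell by contrast, with 5.44, 5.69 and 6.25 in BRO samples, against 6.58, 6.64 and 6.84 in BRO_DMSO samples (-0.88 ± 0.12, adjusted p = 0.00017).

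Regulators of the pathway moved as well. KEAP1 had 7.50, 7.60 and 7.91 in BRO samples, against 6.92, 7.02 and 7.14 in BRO_DMSO samples and rose (0.62 ± 0.08, adjusted p = 0.00014), by 0.57 and so under 1.5-fold without BRO replicate 3. NFE2L2 itself had 9.98, 10.14 and 10.24 in BRO samples, against 9.76, 9.93 and 10.03 in BRO_DMSO samples, a change of 0.21 ± 0.07 (adjusted p = 0.029) that is under 1.5-fold. SQSTM1, the autophagy receptor p62 that binds KEAP1, had 10.81, 11.22 and 11.68 in BRO samples, against 9.63, 9.74 and 10.27 in BRO_DMSO samples (1.40 ± 0.15, adjusted p = 4.5e-05). Of its 4 probe sets above background, 3 changed upward and the fourth had a change of -0.709, so a rise was not seen on every probe set. The fourth lay near background, with means of 3.69 in BRO samples and 4.40 in BRO_DMSO samples. TRIM16, a RING-less ubiquitin ligase of the TRIM family, changed by 1.62 ± 0.12 (adjusted p = 4.4e-06), with pair changes between 1.48 and 1.84.

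Of 12 tested genes of iron handling HMOX1 and TFRC rose, beside 2.46% of all tested genes, and none fell, with a median of 0.038. TFRC, the transferrin receptor that imports iron, had 12.02, 12.11 and 12.20 in BRO samples, against 10.55, 10.95 and 11.57 in BRO_DMSO samples (1.13 ± 0.16, adjusted p = 0.00025). The 6 treated samples lay close together, while control replicates 2, 3 and 5 lay below the other 3. Of 4 probe sets above background 3 had the same direction and 2 reached 1.5-fold. The ferritin light chain, FTL, had 13.05, 13.15 and 13.25 in BRO samples, against 12.63, 12.72 and 12.75 in BRO_DMSO samples, and its change of 0.45 ± 0.06 (adjusted p = 0.00014) was under 1.5-fold though the groups did not overlap. Metallothioneins, which bind metal ions, were not called, beside 7.39% of all tested genes that were. MT2A changed by -0.32 ± 0.09 (adjusted p = 0.019) and MT1X by -0.32 ± 0.10 (adjusted p = 0.025), both under 1.5-fold, and of 7 tested members of their list 5 had changes below 0.

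TXNIP, which binds and inhibits thioredoxin, fell in BRO samples. It had 8.02, 8.62 and 9.08 in BRO samples, against 9.19, 9.61 and 10.20 in BRO_DMSO samples (-1.06 ± 0.22, adjusted p = 0.0034), and all 3 of its probe sets fell at least 1.5-fold. Its level ran in parallel in the 2 groups, since the same replicate numbers, 1, 4 and 6, were low in both.

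Among p53 targets 12 of 48 tested genes rose, beside 2.46% of all tested genes, and none fell, the median was 0.361, and 45 changes were above 0. The list had 17 members with every treated sample above every control, which held for 6.69% of all tested genes. The highest level was in BRO replicate 3 for 9 of the 12. CDKN1A, the cyclin-dependent kinase inhibitor p21, had 9.05, 9.16 and 9.64 in BRO samples, against 7.78, 8.11 and 8.28 in BRO_DMSO samples (1.21 ± 0.12, adjusted p = 3.1e-05), a 2.31-fold rise with the groups apart. MDM2, the ubiquitin ligase that degrades p53, had 10.10, 10.54 and 10.61 in BRO samples, against 9.11, 9.32 and 9.77 in BRO_DMSO samples (1.10 ± 0.12, adjusted p = 5.3e-05), and all 7 of its probe sets above background rose at least 1.5-fold. PPM1D, the phosphatase WIP1 that dampens p53, had 7.56, 7.75 and 8.03 in BRO samples, against 6.59, 6.90 and 7.07 in BRO_DMSO samples (0.90 ± 0.10, adjusted p = 4.7e-05).

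The death receptor FAS had 7.97, 8.11 and 8.27 in BRO samples, against 6.69, 6.92 and 7.46 in BRO_DMSO samples (1.13 ± 0.12, adjusted p = 3.2e-05), with no overlap of the groups. SESN1, a sestrin that restrains mTORC1, changed by 0.76 ± 0.09 (adjusted p = 8.5e-05), TP53INP1 by 0.91 ± 0.09 (adjusted p = 3.2e-05) and KITLG, the ligand of the KIT receptor, by 1.07 ± 0.16 (adjusted p = 0.00037). As the mean of all probe sets of the gene, TP53INP1 changed by 0.40 and KITLG by 0.31, both under 1.5-fold. In each gene only 1 probe set lay above background, and the mean takes in the others. GDF15, a stress cytokine, had 11.78, 12.21 and 12.59 in BRO samples, against 11.05, 11.33 and 11.59 in BRO_DMSO samples (0.91 ± 0.13, adjusted p = 0.00035). Of these 4, none had groups that overlapped.

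Other p53 targets were not called. DDB2 and XPC, which recognise DNA lesions for nucleotide excision repair, had levels in the same range in both groups. DDB2 had 8.03, 8.10 and 8.20 in BRO samples, against 7.92, 8.01 and 8.32 in BRO_DMSO samples (0.05 ± 0.07, adjusted p = 0.64) and XPC had 7.31, 7.58 and 7.94 in BRO samples, against 7.32, 7.47 and 7.59 in BRO_DMSO samples (0.13 ± 0.10, adjusted p = 0.33). The death effectors BAX and BBC3 changed by 0.01 ± 0.07 (adjusted p = 0.96) and 0.17 ± 0.12 (adjusted p = 0.32). GADD45A changed by 0.27 ± 0.10 (adjusted p = 0.046), SESN2 by 0.53 ± 0.11 (adjusted p = 0.004) and ATF3 by 0.53 ± 0.18 (adjusted p = 0.042), all under 1.5-fold.

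**Figure D4:**
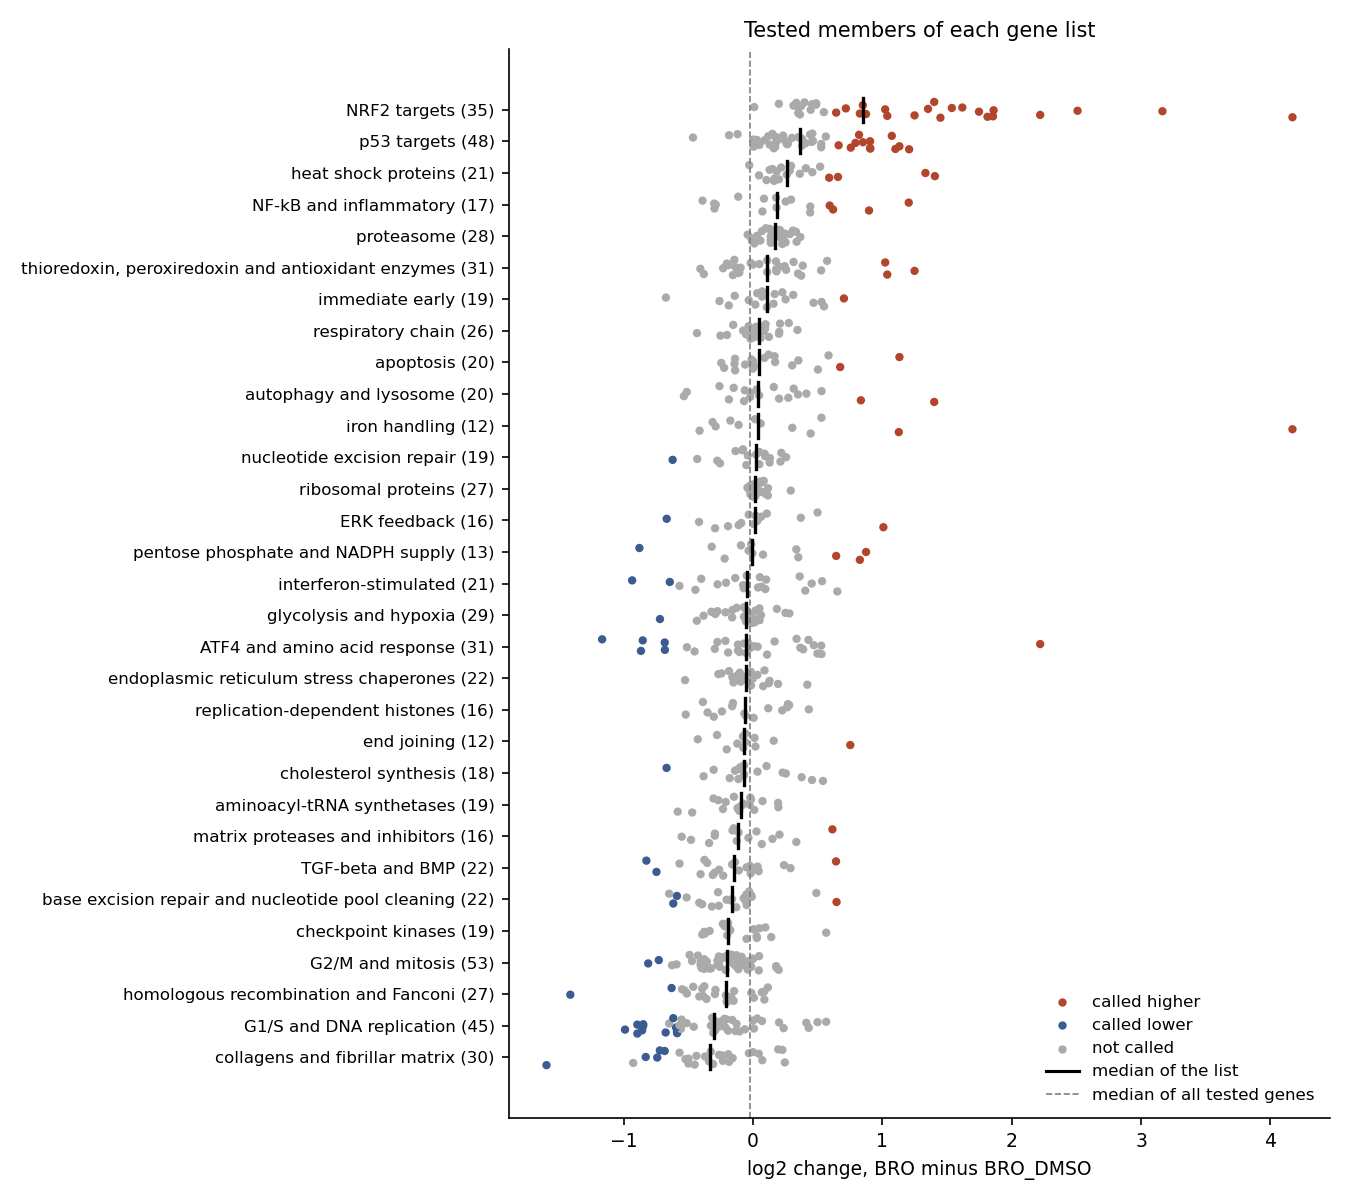
Log2 change (horizontal axis, BRO minus BRO_DMSO) of the tested members of each gene list with at least 12 of them (rows, with their number), red where called higher, blue where called lower and grey where not called, with the list median as a black bar and the median of all tested genes as a dashed line. NRF2 targets have the highest median, 0.849, and collagens and fibrillar matrix the lowest, -0.333.

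Heat shock genes rose in part. Of 21 tested members 4 rose, beside 2.46% of all tested genes, and none fell, with a median of 0.261. HSPB8, a small heat shock protein that works with BAG3, had 5.48, 6.32 and 7.18 in BRO samples, against 3.79, 5.20 and 5.36 in BRO_DMSO samples (1.41 ± 0.33, adjusted p = 0.0058), and DNAJB4, a cochaperone of the HSP40 family, had 7.96, 8.41 and 8.95 in BRO samples, against 6.94, 7.03 and 7.23 in BRO_DMSO samples (1.33 ± 0.14, adjusted p = 4.5e-05). Both had no overlap. HSPH1 changed by 0.66 ± 0.10 (adjusted p = 0.00032) and HSPA4L by 0.59 ± 0.10 (adjusted p = 0.00079), while the inducible HSPA1A, with 8.18, 8.91 and 9.39 in BRO samples, against 8.27, 8.61 and 9.16 in BRO_DMSO samples, was not called (0.16 ± 0.20, adjusted p = 0.56). HSPH1 changed by 0.54 and was not called as the mean of its probe sets. HSPA4L lay at the threshold and had changes between 0.53 and 0.58, all uncalled, without BRO replicate 1, 2 or 5 or BRO_DMSO replicate 2 or 3. None of 28 proteasome subunits was called, beside 7.39% of all tested genes. Their median was 0.170, with the largest change in PSMB6 (0.37 ± 0.07). Of the 28, 25 had changes above 0 and 10 passed the adjusted p alone, all 10 of them higher. Over all 11496 tested genes 5355 had changes above 0, and 1548 were higher by the adjusted p alone.

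Calls among genes of the amino acid response driven by ATF4 were lower apart from SLC7A11. Of 31 tested members 5 fell, beside 4.93% of all tested genes, and SLC7A11 rose. The median of -0.054 turned to 0.047 with an equal median over all genes, where 4 members rose and 3 fell. ASNS, asparagine synthetase, had 7.98, 8.79 and 9.63 in BRO samples, against 9.05, 9.76 and 10.18 in BRO_DMSO samples (-0.87 ± 0.26, adjusted p = 0.021), and the groups overlapped although all 6 pairs had a negative change. As the mean of its probe sets, of which only 1 lay above background, ASNS changed by -0.49, and in 1 fit of all groups its adjusted p was 0.077. CBS, which makes cystathionine, was not well above background in BRO samples, so its log2 change was -0.97 or lower (adjusted p = 0.0015). PCK2 changed by -0.85 ± 0.13 (adjusted p = 0.00051), VLDLR by -0.68 ± 0.09 (adjusted p = 0.00012) and PHGDH, the first enzyme of serine synthesis, by -0.68 ± 0.14 (adjusted p = 0.0034), which was -0.58 and not called without BRO replicate 4. VLDLR and PHGDH were both -0.58 and not called with an equal median over all genes. The stress factors DDIT3 and TRIB3 changed by -0.05 ± 0.16 (adjusted p = 0.83) and -0.11 ± 0.13 (adjusted p = 0.58). Of 19 aminoacyl-tRNA synthetases and 22 chaperones of the endoplasmic reticulum none was called, HSPA5 among them (0.08 ± 0.09, adjusted p = 0.53). Of all tested genes 7.39% were called, a share at which such short lists would hold few calls.

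A part of the DNA replication genes fell in BRO samples. Of 45 tested genes of the G1/S phase 12 fell, beside 4.93% of all tested genes, and none rose, with a median of -0.298. The highest treated level was in BRO replicate 4 for 10 of these 12 and the lowest in BRO replicate 3 for 8. MCM2, a subunit of the replicative helicase, had 6.86, 7.60 and 7.91 in BRO samples, against 8.05, 8.45 and 8.76 in BRO_DMSO samples (-0.89 ± 0.19, adjusted p = 0.0035) with no overlap. GINS2 changed by -0.99 ± 0.23 (adjusted p = 0.0062), CDC45 by -0.86 ± 0.23 (adjusted p = 0.012), the primase subunit PRIM1 by -0.85 ± 0.16 (adjusted p = 0.0014), the polymerase subunit POLA1 by -0.85 ± 0.17 (adjusted p = 0.0029) and MCM6 by -0.59 ± 0.14 (adjusted p = 0.0058). The count of 12 rests on small margins. It was 6 with an equal median over all genes, 6 without BRO replicate 3, without BRO_DMSO replicate 1 or without BRO_DMSO replicate 4, and 7 without BRO replicate 2, BRO replicate 5 or BRO_DMSO replicate 6. MCM6 was among the genes lost, with -0.49 without BRO_DMSO replicate 4. GINS2 changed by -0.42 as the mean of its probe sets, of which only 1 lay above background.

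Of 53 tested genes of mitosis 2 fell, beside 4.93% of all tested genes, KIF15 (-0.81 ± 0.20, adjusted p = 0.0085) and CKAP2L (-0.73 ± 0.22, adjusted p = 0.024), 47 changes were below 0, and the median was -0.203. With the replicate number as a block 4 fell, CENPA (adjusted p = 0.00072) and CENPI (adjusted p = 0.004) joining them. The count was 1 without BRO replicate 2, BRO replicate 3 or BRO_DMSO replicate 6, 5 without BRO replicate 4 and 4 without BRO replicate 6. CCNB1, cyclin B1, had 9.81, 10.16 and 10.69 in BRO samples, against 9.88, 10.16 and 10.45 in BRO_DMSO samples, a change of 0.05 ± 0.16, and the proliferation marker MKI67 changed by -0.47 ± 0.19 (adjusted p = 0.072). No histone gene of 16 tested was called, beside 7.39% of all tested genes, a share at which so short a list would hold few calls or none.

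Lists of DNA repair genes held few calls each, as did all tested genes, of which 7.39% were called. In base excision repair and cleaning of the nucleotide pool, 1 of 22 rose and 2 fell, beside 2.46% and 4.93% of all tested genes. TDG, the thymine DNA glycosylase, rose (0.65 ± 0.12, adjusted p = 0.0013), while UNG (-0.62 ± 0.16, adjusted p = 0.011) and XRCC1 (-0.59 ± 0.11, adjusted p = 0.0012) fell, both close to 1.5-fold. Without BRO replicate 5 or without BRO_DMSO replicate 1 neither was called, with changes of -0.56 in both cases for UNG and of -0.58 and -0.55 for XRCC1. UNG was also lost without BRO replicate 3 or BRO_DMSO replicate 4, XRCC1 without BRO replicate 2 or 4 or BRO_DMSO replicate 5, and TDG, at 0.58, without BRO_DMSO replicate 5. As the mean of its probe sets TDG changed by 0.57 and was not called. FEN1 changed by -0.65 ± 0.29 (adjusted p = 0.11) and passed with the replicate block (adjusted p = 0.00015). OGG1, which removes oxidized guanine, had 4.98, 5.22 and 5.79 in BRO samples, against 5.13, 5.46 and 5.59 in BRO_DMSO samples (-0.13 ± 0.13, adjusted p = 0.47), and NUDT1, which clears oxidized nucleotides, changed by -0.27 ± 0.11 (adjusted p = 0.081). RMI2, a subunit of the complex that dissolves recombination intermediates, fell by more than any other of 27 tested genes of homologous recombination and the Fanconi pathway, with 5.05, 5.54 and 6.08 in BRO samples, against 6.73, 7.05 and 7.37 in BRO_DMSO samples (-1.41 ± 0.17, adjusted p = 8.3e-05). In all, 2 of the 27 fell, beside 4.93% of all tested genes. FANCL also fell (-0.63 ± 0.16, adjusted p = 0.011), though it was -0.55 to -0.57 and uncalled without BRO replicate 3 or 5 or BRO_DMSO replicate 4. LIG4 rose (0.75 ± 0.11, adjusted p = 0.00037), but was 0.58 and not called as the mean of its probe sets. It was the 1 call among 12 end joining genes, beside 2.46% of all tested genes that rose. ERCC1 fell (-0.62 ± 0.13, adjusted p = 0.0027) on 1 of its 3 probe sets above background, of which another had a change of 0.278. It was the 1 call among 19 nucleotide excision repair genes, beside 4.93% of all tested genes that fell. As the mean of its probe sets ERCC1 changed by -0.25 and was not called, and it was -0.57 to -0.58 and uncalled without BRO replicate 1, 2 or 3. None of 7 mismatch repair genes, 9 translesion polymerases and helpers and 19 checkpoint genes was called, beside 7.39% of all tested genes. At that share lists of this size would hold few calls or none.

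Some genes of the extracellular matrix fell. Of 30 tested collagens and fibrillar matrix genes 5 fell, beside 4.93% of all tested genes, and none rose. The median of -0.333 was the lowest of the lists with at least 12 tested members. FN1, fibronectin, had 10.83, 11.31 and 11.55 in BRO samples, against 11.54, 12.01 and 12.15 in BRO_DMSO samples (-0.74 ± 0.14, adjusted p = 0.0018), with all 7 of its probe sets at least 1.5-fold lower and a small overlap at BRO replicate 4. FBN1, fibrillin 1, had 8.18, 8.21 and 8.93 in BRO samples, against 8.96, 9.18 and 9.41 in BRO_DMSO samples (-0.83 ± 0.13, adjusted p = 0.00053), TNC, tenascin C, changed by -0.72 ± 0.13 (adjusted p = 0.0014) and THBS2 by -0.68 ± 0.17 (adjusted p = 0.0077). COL1A1 had 3.62, 5.21 and 6.52 in BRO samples, against 5.67, 6.61 and 7.73 in BRO_DMSO samples (-1.60 ± 0.46, adjusted p = 0.019), where BRO replicates 1 and 2 were lowest and 1 of its 2 probe sets above background passed 1.5-fold. As the mean of all its probe sets COL1A1 changed by -0.50, under 1.5-fold, and was not called. COL5A1 changed by -0.93 ± 0.42 (adjusted p = 0.11) and passed with the replicate block (adjusted p = 0.00012). Latent TGF-beta binding protein LTBP1 (-0.82 ± 0.09, adjusted p = 6.1e-05) and the TGF-beta-induced TGFBI (-0.75 ± 0.15, adjusted p = 0.0026) fell too, and BAMBI, a decoy receptor of the family, rose (0.64 ± 0.13, adjusted p = 0.0028), by 0.56 without BRO replicate 3 and 0.58 without BRO_DMSO replicate 2, both under 1.5-fold. TNC changed by -0.26 as the mean of all its probe sets, of which only 1 lay above background. THBS2 was -0.58 and not called with an equal median of each array, and in 1 fit of all groups its adjusted p was 0.0502.

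Inflammatory genes changed in part. Of 17 tested genes of the NF-kB response 4 rose, beside 2.46% of all tested genes, and none fell. CXCL3, a neutrophil chemokine, had 4.55, 5.37 and 5.89 in BRO samples, against 3.65, 4.01 and 4.41 in BRO_DMSO samples (1.20 ± 0.20, adjusted p = 0.00083), CXCL8 changed by 0.59 ± 0.21 (adjusted p = 0.047) and NFKB2 by 0.90 ± 0.21 (adjusted p = 0.006), and RELB was not well above background in either group. CXCL8 lay at the threshold, and 8 of 12 removals of a single sample ended its call, with changes of 0.49 without BRO_DMSO replicate 4 to 0.62 without BRO replicate 3. The count was 2 without BRO replicate 3 or without BRO_DMSO replicate 4. IL6 had 3.79, 4.52 and 4.97 in BRO samples, against 3.62, 4.08 and 4.32 in BRO_DMSO samples (0.44 ± 0.18, adjusted p = 0.074) and was not called. Of 21 interferon-stimulated genes IRF1 (-0.93 ± 0.17, adjusted p = 0.0013) and IFI35 (-0.64 ± 0.13, adjusted p = 0.0027) fell, beside 4.93% of all tested genes. The count was 1 without BRO replicate 3 or without BRO_DMSO replicate 1, where IFI35 was at -0.57 and -0.58. The immediate early gene EGR1 was variable in both groups, with 5.48, 6.91 and 7.90 in BRO samples, against 5.34, 6.53 and 7.12 in BRO_DMSO samples (0.47 ± 0.38, adjusted p = 0.38).

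The largest falls were in genes of varied function. LRRC17, a secreted leucine-rich repeat protein, had 5.24, 5.84 and 6.61 in BRO samples, against 7.33, 7.95 and 8.37 in BRO_DMSO samples (-2.01 ± 0.24, adjusted p = 7.4e-05), 4.03-fold lower. Its groups did not overlap, as the rule for picking the largest falls required. NREP had 4.72, 5.31 and 5.83 in BRO samples, against 7.04, 7.12 and 7.34 in BRO_DMSO samples (-1.85 ± 0.15, adjusted p = 1.2e-05), and GALNT15, an enzyme that starts O-linked glycans, had 4.82, 4.98 and 5.46 in BRO samples, against 6.42, 7.05 and 7.55 in BRO_DMSO samples (-1.87 ± 0.18, adjusted p = 2.7e-05). CEMIP, which breaks down hyaluronan, had 6.67, 7.14 and 7.53 in BRO samples, against 8.23, 8.74 and 9.20 in BRO_DMSO samples (-1.66 ± 0.20, adjusted p = 7.7e-05). ALDH1A3, a retinaldehyde dehydrogenase, changed by -1.56 ± 0.16 (adjusted p = 3.9e-05), IL17RD, an inhibitor of growth factor signalling, by -1.60 ± 0.26 (adjusted p = 0.00059), and the SNARE protein SNAP25 by -1.54 ± 0.16 (adjusted p = 3.4e-05). MAP2K6, a kinase that activates p38, and TLCD2 were not well above background in BRO samples, so their log2 changes were -1.31 or lower and -1.55 or lower. SIGLEC15 (-1.37 ± 0.12, adjusted p = 1.7e-05), KIAA1549L (-0.82 ± 0.07, adjusted p = 1.7e-05) and LOC339260 (-1.06 ± 0.09, adjusted p = 1.2e-05) were among the falls with the smallest p.

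Beside the NRF2 targets, other genes were among the largest rises. ZSCAN31, a SCAN domain zinc finger protein, had 6.55, 7.16 and 7.73 in BRO samples, against 4.23, 5.03 and 5.45 in BRO_DMSO samples (2.18 ± 0.23, adjusted p = 3.4e-05). SPP1, osteopontin, had 7.35, 7.80 and 7.98 in BRO samples, against 5.75, 6.12 and 6.30 in BRO_DMSO samples (1.63 ± 0.13, adjusted p = 6.4e-06), and UNKL had 9.0, 9.38 and 9.83 in BRO samples, against 7.50, 7.94 and 8.15 in BRO_DMSO samples (1.56 ± 0.15, adjusted p = 2.7e-05). The groups were apart in all 3, as the rule for picking the largest rises required. SPANXC, a member of a family of near-identical sperm genes that its probe set may not tell apart, changed by 1.69 ± 0.23 (adjusted p = 0.00022).

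The change in BRO samples was set against that in the other compounds by the difference of the 2 changes, each from its own control, in 1 fit of all 17 groups. Doses differed, exposure times are not given, and H2O2 and tBHQ share their control. The BRO change differed from the H2O2 change at 729 genes (6.34%), 200 positive and 529 negative, from the tBHQ change at 1178 (10.2%), 367 positive and 811 negative, and from the ETP change at 1040 (9.05%), 312 positive and 728 negative. With same-numbered samples as blocks, which leaves out the DMSO_pooled sample without an H2O2 sample of its number, the first count was 1173. Whether same-numbered samples deviate together was checked for BRO and BRO_DMSO only, so for H2O2 and DMSO_pooled the blocks are an assumption. With an equal median of each array the split turned to 592 positive and 303 negative against H2O2, 673 and 521 against tBHQ, and 762 and 428 against ETP.

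Each compound was first read against its own control. In BRO samples, as given above, 21 NRF2 targets and 12 p53 targets rose. In H2O2 samples 0.931% of tested genes were called, and none of 35 NRF2 targets and 18 of 48 p53 targets rose. In tBHQ samples 5.39% rose and 4.44% fell, and 28 NRF2 targets and 4 p53 targets rose. In ETP samples 2.68% were called and 2.06% rose, with 1 NRF2 target and 30 p53 targets.

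NRF2 targets had higher changes in BRO samples than in H2O2 and ETP samples. Against H2O2, 19 of 35 differences were positive and called (1.74% of all tested genes were), against ETP 21 (2.71%), and none of the 35 was called negative in either. Over all alternatives run, among them the removal of each single BRO, BRO_DMSO, H2O2, ETP or ETP_DMSO sample, between 17 and 23 were positive against H2O2 and between 18 and 24 against ETP. HMOX1 changed by 0.44 ± 0.34 in H2O2 samples and 0.54 ± 0.36 in ETP samples, and the BRO change exceeded these by 3.73 ± 0.44 (adjusted p = 1.7e-09) and 3.63 ± 0.43 (adjusted p = 5.8e-10). SLC7A11 changed by -0.77 ± 0.35 in H2O2 samples and -0.96 ± 0.46 in ETP samples, and the BRO change was higher by 2.99 ± 0.50 (adjusted p = 1.8e-05) and 3.18 ± 0.49 (adjusted p = 1e-06).

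Between BRO and tBHQ, 6 of the 35 differences were called and all 6 were negative, beside 7.05% negative over all tested genes. AKR1C1 changed by 6.22 ± 0.18 in tBHQ samples, and the BRO change minus that was -3.05 ± 0.55 (adjusted p = 1.7e-05). AKR1C2 likewise had a difference of -1.97 ± 0.37 (adjusted p = 3.4e-05). For HMOX1 the difference was -0.32 ± 0.43 (adjusted p = 0.66), for GCLM 0.24 ± 0.26 (adjusted p = 0.57) and for NQO1 0.14 ± 0.13 (adjusted p = 0.48), none of them called, and with these standard errors a difference either way could have been missed. TXNIP fell in both compounds and by more in tBHQ samples, where it changed by -3.05 ± 0.45 (difference 1.99 ± 0.69, adjusted p = 0.032). In the ATF4 list 12 of 31 differences were negative, beside 7.05% of all tested genes, and 1 was positive. The negative count was 7 without BRO replicate 4, 7 with no filter and 6 with an equal median of each array, and lay between 6 and 14 over all alternatives run. ASNS changed by 0.64 ± 0.28 in tBHQ samples, and the difference was -1.51 ± 0.53 (adjusted p = 0.034).

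**Figure D5:**
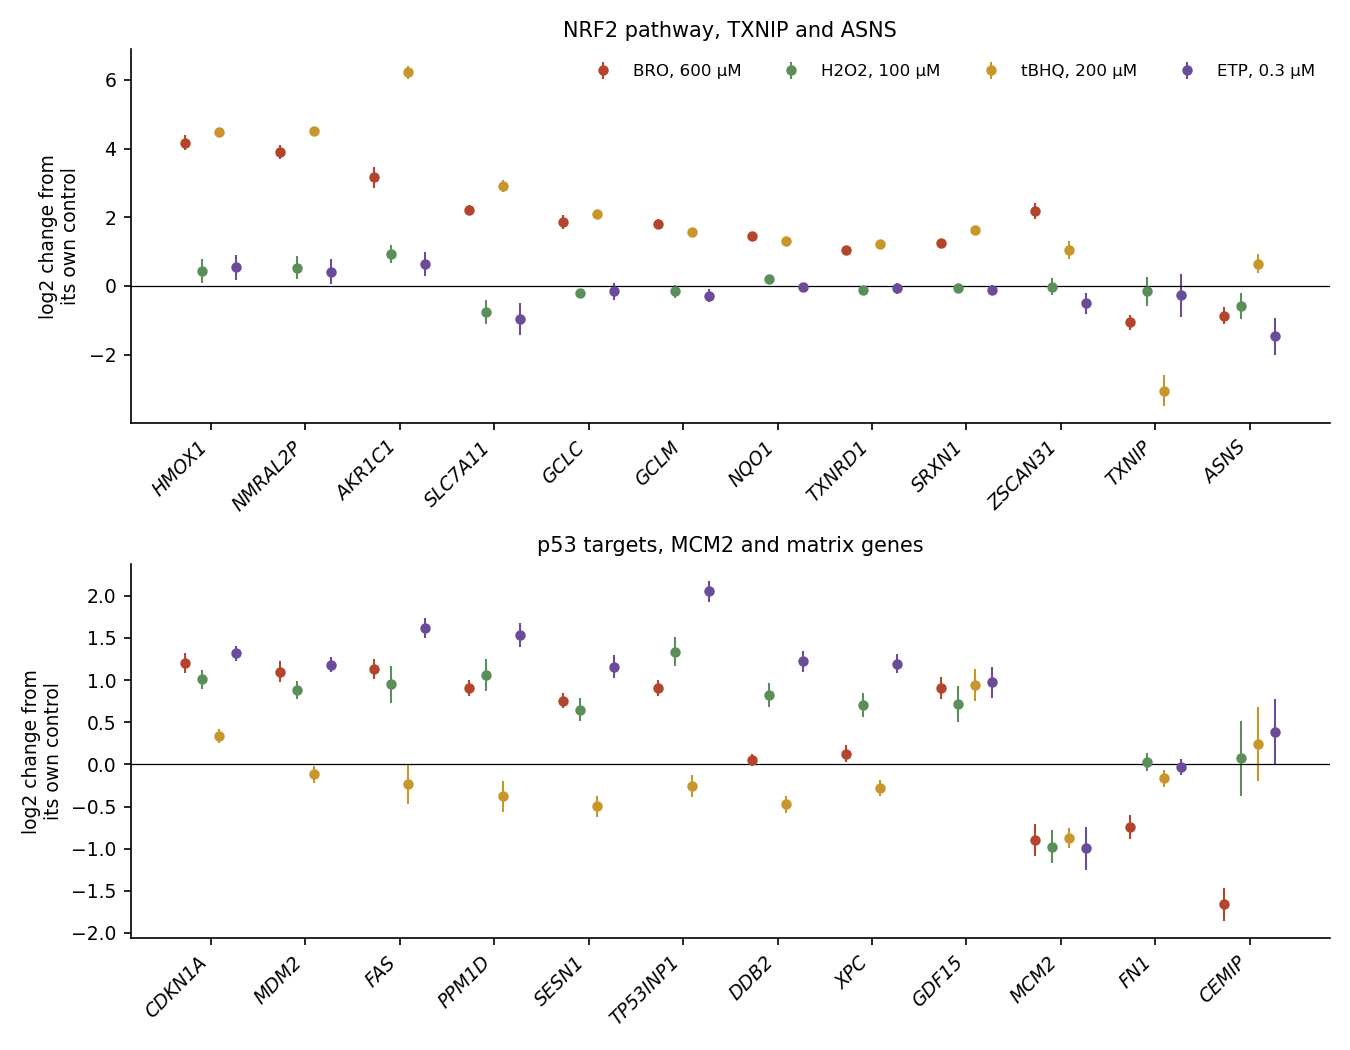
Log2 change ± standard error (vertical axis) of 24 genes (horizontal axis) in BRO, H2O2, tBHQ and ETP samples, each against its own control, from left to right within a gene. In the upper panel BRO and tBHQ are above 2 for HMOX1, NMRAL2P and SLC7A11 with H2O2 and ETP at 0.54 or lower, and in the lower panel BRO, H2O2 and ETP are above 0 for CDKN1A and MDM2 with tBHQ at 0.33 or lower.

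For p53 targets the order was another. The difference from tBHQ was positive at 16 of 48 members and negative at none (3.19% positive over all tested genes), that from H2O2 was negative at 3 (4.60%) and that from ETP negative at 13 (6.33%). Over the alternatives run these counts lay between 11 and 23, between 2 and 5, and between 9 and 16, and the count against H2O2 was 5 without H2O2 replicate 1 or 2. MDM2 changed by 0.88 ± 0.11 in H2O2 samples, -0.12 ± 0.10 in tBHQ samples and 1.18 ± 0.09 in ETP samples, so that the BRO change exceeded that of tBHQ by 1.22 ± 0.15 (adjusted p = 5.9e-10) and its differences of 0.22 ± 0.15 from H2O2 (adjusted p = 0.36) and -0.08 ± 0.15 from ETP (adjusted p = 0.75) were not called. The difference from ETP was called for TP53INP1 (-1.15 ± 0.18, adjusted p = 1.7e-06), PPM1D (-0.63 ± 0.18, adjusted p = 0.0082), DDB2 (-1.17 ± 0.17, adjusted p = 1.4e-07) and XPC (-1.07 ± 0.17, adjusted p = 2.7e-06). DDB2 rose in H2O2 samples (0.83 ± 0.14) and in ETP samples (1.22 ± 0.12), and its difference from H2O2 was -0.78 ± 0.17 (adjusted p = 0.0011).

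Of 45 tested G1/S and replication genes, no difference from H2O2 was called, 2 from tBHQ were positive (3.19% of all tested genes were), PCNA (0.97 ± 0.20, adjusted p = 0.00019) and TYMS (0.70 ± 0.18, adjusted p = 0.0038), and 1 from ETP was positive (2.71%), MCM6 (1.23 ± 0.31, adjusted p = 0.0032). PCNA and TYMS were named after their values were seen. MCM2 changed by -0.97 ± 0.20, -0.87 ± 0.12 and -1.0 ± 0.25 in H2O2, tBHQ and ETP samples, and none of its differences was called, the largest being 0.10 ± 0.31. Of the collagen and matrix list, 5 of 30 differences were negative and called against H2O2 (4.60% of all tested genes were) and 5 against ETP (6.33%), while against tBHQ 3 were positive (3.19%) and 3 negative (7.05%). Against H2O2 the count was 3 with the mean of all probe sets and 8 with the replicate block. Against ETP it was 3 with either an equal median or the mean of all probe sets, and also without BRO replicate 1 or 2, BRO_DMSO replicate 3 or 4 or ETP_DMSO replicate 6. It was 8 with the replicate block and without ETP_DMSO replicate 2. FN1 had a difference of -0.77 ± 0.18 from H2O2 (adjusted p = 0.002) and -0.71 ± 0.17 from ETP (adjusted p = 0.0023). The CEMIP change lay below that of all 3 other compounds, with a difference of -1.73 ± 0.55 against H2O2 (adjusted p = 0.027), -1.91 ± 0.54 against tBHQ (adjusted p = 0.0067) and -2.05 ± 0.54 against ETP (adjusted p = 0.0039). The ZSCAN31 change lay above all 3, with differences of 2.21 ± 0.40, 1.15 ± 0.39 and 2.69 ± 0.39 in the same order, with adjusted p = 0.026 for tBHQ. In all, of 11496 tested genes, 23 rose in BRO samples with a positive called difference from each of the 3 compounds. A further 110 fell with a negative one from each. The 3 differences share the BRO and BRO_DMSO samples, and 2 of them share DMSO_pooled, so they are not independent. Neither count was rerun with another scaling, and the split of the differences depended on the scaling, as given above.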

How the data were processed

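Each sample's RNA was labelled and hybridised to 1 one-colour Affymetrix array. The deposited values are log2 probe set signals made by the authors with GCRMA and Partek, per the submitters' processing notes (no version is named there); GCRMA corrects background and normalizes across arrays, and the sets of a compound with its control look separately normalized, so levels were compared only within a set. Controls and probe sets with no or several genes were left out (54715 probe sets, 40914 kept with 1 gene by GEO's platform annotation). A gene was read from 1 probe set, that of the largest mean signal in the whole series, and 11496 of 19774 genes with a mean of 4 or more in at least 1 group were tested. Changes were tested with limma 3.58.1 in R 4.3.3 (lmFit, eBayes, Benjamini-Hochberg adjustment over all tested genes), on BRO and BRO_DMSO alone, and for differences between compounds in 1 fit of all 17 groups, after averaging a repeated ETP_DMSO array with its replicate; the script was tested on simulated data. All adjusted p-values come from limma. Same-numbered BRO and BRO_DMSO samples deviated together in 6 of 6 pairs (r between 0.328 and 0.650 over the tested genes). Numbers were therefore taken as pairs for changes within pairs, and a fit with the number as a block was run as an alternative. Calls, standard errors and adjusted p-values come from fits that ignore the pairing, unless the block is named. Alternatives were other filters, probe set rules, scalings, variances, fold minimums and leaving out samples; 2 scalings and the leaving out of samples of other compounds were chosen after seeing the data. Genes were named from a panel, the 15 largest rises and 15 largest falls without overlap, the 5 smallest adjusted p each way, up to 6 members a list and the 5 largest differences each way per compound. The comparison and the lists were chosen with earlier results of these data known.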

Additional observations from a re-analysis of the deposited data

Results flagged for a closer look

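Among the genes with the largest differences between the BRO change and that of another compound, each tested as an interaction in limma, 19 differences are given here. Against H2O2 the BRO change was higher for HMOX1 by 3.73, NMRAL2P by 3.36, SLC7A11 by 2.99, AKR1C2 by 2.35 and AKR1C1 by 2.23 on the log2 scale. The difference from H2O2 was -2.25 for TLCD2, -2.24 for ALDH1A3, -2.21 for NREP and -2.17 for COL1A1. Against tBHQ it was 1.99 for TXNIP, -3.05 for AKR1C1 and -2.56 for TLCD2. Against ETP it was 3.63 for HMOX1, 3.48 for NMRAL2P, 3.18 for SLC7A11, 2.69 for ZSCAN31, 2.53 for AKR1C1, -2.07 for TLCD2 and -2.05 for CEMIP. NMRAL2P in controls and TLCD2 in BRO samples were not well above background, so their differences are rough. A Dixon test for a single outlying sample, run on 240 groups of samples of the genes named in the text, found none. That test can miss samples that deviate together, as described above for AKR1C1 in BRO samples, so it does not show that all groups were uniform.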

How the results depend on the processing

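The count of 850 genes was 550 (348 lower) with the mean of all probe sets of a gene, 1473 (618 higher, 855 lower) over 21612 probe sets on their own, 3474 (1548 higher, 1926 lower) with no fold minimum, and 146 (50 higher, 96 lower) at 2-fold. An equal median of each array gave 493 higher and 368 lower genes. With the replicate block 884 genes were called, all 850 among them, and the pairing changed no other call of the BRO change of a named gene than those given beside it. Leaving out 1 sample gave between 725 (without BRO replicate 3) and 1007 (without BRO replicate 6) genes, 239 to 343 higher and 486 to 668 lower, and with the block and a number left out of both groups 734 to 1019. Of 91 called genes named in the text, 64 were called under every alternative but the 2-fold minimum, and none turned its direction; TXNIP had an adjusted p of 0.098 in 1 fit of all groups. The count differing from H2O2 was 485 (333 negative) with the mean of all probe sets and 1173 (335 positive, 838 negative) with the replicate block, and an equal median gave 592 positive and 303 negative against H2O2, 673 and 521 against tBHQ, and 762 and 428 against ETP. Leaving out 1 sample (of BRO, BRO_DMSO, H2O2, tBHQ, ETP or ETP_DMSO) gave 564 to 909 genes against H2O2, 1073 to 1313 against tBHQ and 888 to 1238 (without ETP replicate 2) against ETP. The medians of the ATF4, synthetase, endoplasmic reticulum, histone, end joining, interferon, cholesterol, glycolysis and NADPH lists turned above 0 with an equal median. Levels near background are compressed, the exposure time is not given, and the causes of these shifts were not tested.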

Other observations

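Gene groups described here were chosen after their values were seen, and so carry no test. Genes of the primary cilium, the antenna-like organelle that a resting cell builds, were lower in BRO samples: 11 of 48 tested members fell and none rose, the median change was -0.242 and 41 changes were below 0. Over all tested genes 4.93% fell. TMEM107, of the transition zone at the base of the cilium, had 5.0, 5.65 and 6.33 in BRO samples, against 6.93, 7.19 and 7.62 in BRO_DMSO samples (-1.52 ± 0.22, adjusted p = 0.00029). B9D1, of the same zone, had 5.69, 5.90 and 6.50 in BRO samples, against 6.97, 7.12 and 7.43 in BRO_DMSO samples (-1.15 ± 0.14, adjusted p = 0.0001). IFT88, a carrier of cargo along the cilium, had 5.19, 5.71 and 6.04 in BRO samples, against 6.58, 6.75 and 6.90 in BRO_DMSO samples (-1.05 ± 0.12, adjusted p = 8.3e-05). The count was 4 with the mean of all probe sets of a gene and 7 with an equal median of each array. The BRO change was below that of H2O2 at 10, tBHQ at 11 and ETP at 12 members, and above it at none. Over all tested genes 4.60%, 7.05% and 6.33% had a negative called difference, in the same order.

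Host transcripts of small nucleolar RNAs, whose introns hold guides for RNA modification, were higher: 6 of 21 rose (2.46% of all tested genes did), all 21 changes were above 0 and the median was 0.372. SNHG1 had 10.26, 10.52 and 10.76 in BRO samples, against 9.44, 9.56 and 9.80 in BRO_DMSO samples (0.93 ± 0.09, adjusted p = 3.2e-05), and SNHG12 and DANCR changed by 0.84 ± 0.09 (adjusted p = 5.4e-05) and 0.67 ± 0.10 (adjusted p = 0.00051). In tBHQ samples the median of the list was -0.337 and 5 members fell, and the difference was positive at 11 of 21, beside 3.19% of all tested genes. Among 328 genes with ZNF-numbered names, 18 rose and 4 fell, beside 2.46% and 4.93% of all tested genes, with a median of 0.139. The count of rises was 10 with the mean of all probe sets, 32 after quantile normalization and 37 with an equal median of each array.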
